A study of Mus musculus with 18 samples.

Results

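The receptors and ligands of the epidermal growth factor (EGF) family were followed as 10 genes, chosen by symbol: the ErbB receptors Egfr, Erbb2 and Erbb3, the ligands Areg, Ereg, Hbegf, Tgfa, Egf and Btc, and Errfi1, an inhibitor that binds the kinase of the active receptors. All 10 had a row among the 43346 genes of the count table, and all 10 had a count above 0 on average and so entered the test. The 18 libraries were made from cells of untreated C57BL/6 mice aged 8 to 20 weeks per the labels. The study's methods give a wider age range for RNA sequencing, in male and female mice, and a mixed or C57/B6 background. All mice carried the Lgr5_eGFP_Iris_creERT2 allele, written Lgr5eGFP-Ires-CreERT2 in the paper. In it the Lgr5 gene drives a green fluorescent protein and a tamoxifen-dependent Cre. Epithelial (EPCAM+) cells with high, medium or low Lgr5-GFP were sorted from crypts of the small intestine (SI) and of the large intestine (LI), and the study places them at the crypt centre, at the border of the stem cell zone and beyond it (row >3). Each of the 6 groups held 3 biological replicates. The animal behind each replicate number is not named, so p-values measure the spread between these libraries. For all groups alike, the methods name dissociation with TrypLE and a staining buffer that contained mouse EGF, Noggin and R-spondin1.

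EGF family ligands are made as membrane-anchored precursors and are cut free by ADAM proteases. EGF, TGF-alpha and amphiregulin (Areg) bind EGFR, while epiregulin (Ereg), heparin-binding EGF-like growth factor (Hbegf) and betacellulin (Btc) also bind ErbB4. ErbB2 has no known ligand of its own and acts as a partner, and ErbB3 binds neuregulins and has little kinase activity. Receptor pairs signal through RAS, RAF, MEK and ERK, and ERK in turn induces inhibitors such as Errfi1, Sprouty proteins and dual-specificity phosphatases. In the intestinal crypt this pathway is known for driving proliferation of stem and progenitor cells, and Paneth cells of the SI are a known source of EGF and TGF-alpha.

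Total counts ran from 8312093 to 31940965 per library, with a median of 21934851. Lgr5, measured as normalised counts (counts divided by 1 size factor per library), followed the sort among same-numbered libraries of each site. It was 2434 to 5252 in SI centre, 157 to 2028 in SI border and 28 to 280 in SI row >3 libraries, against 2176 to 2575, 1184 to 1676 and 134 to 466 in the LI. The low value of 157 belonged to SI border replicate 3, below SI row >3 replicates 1 and 2 at 170 and 280. The summed Lgr5 stem cell markers placed this border library likewise, at 3076 against 6969 and 12883. All 6 epithelial markers were detected, and 7 Paneth cell markers summed to at least 4476 in every SI library and to at most 245 in every LI library. The SI libraries numbered 3 stood apart from the other 6 SI libraries, and differences of the members between the sites are given below with and without them where they moved a call. Car1, a carbonic anhydrase of colonocytes, was at 1668, 22796 and 38981 in these 3 libraries, at 0 to 215 in the other 6 SI libraries and at 2498 to 26486 in the LI.

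Levels can be compared between genes only per length, and normalised counts per kb of exon were used for this. Averaged over the 18 libraries, Erbb3 was the most abundant member at 820 per kb, followed by Erbb2 at 515, Areg at 423, Errfi1 at 236 and Hbegf at 107. Egfr came next at 81.8 per kb, then Tgfa at 58.3, Egf at 21.2, Btc at 20.5 and Ereg at 6.37. This order pools both sites. In the SI alone the mean of Areg per kb was below that of Errfi1, and that of Btc was above that of Egf. In the LI alone Areg, at 561 to 886 per kb, lay above Erbb2, at 387 to 531, in every library. Across libraries, Areg normalised counts spanned 22.5-fold and Egf 9.50-fold, whereas Erbb2 spanned 1.74-fold, Erbb3 1.84-fold and Egfr 2.11-fold. Among the ligands the narrowest range was that of Btc, at 3.68-fold, Ereg aside, for which no fold was taken because 1 library held no count.

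**Figure D1:**
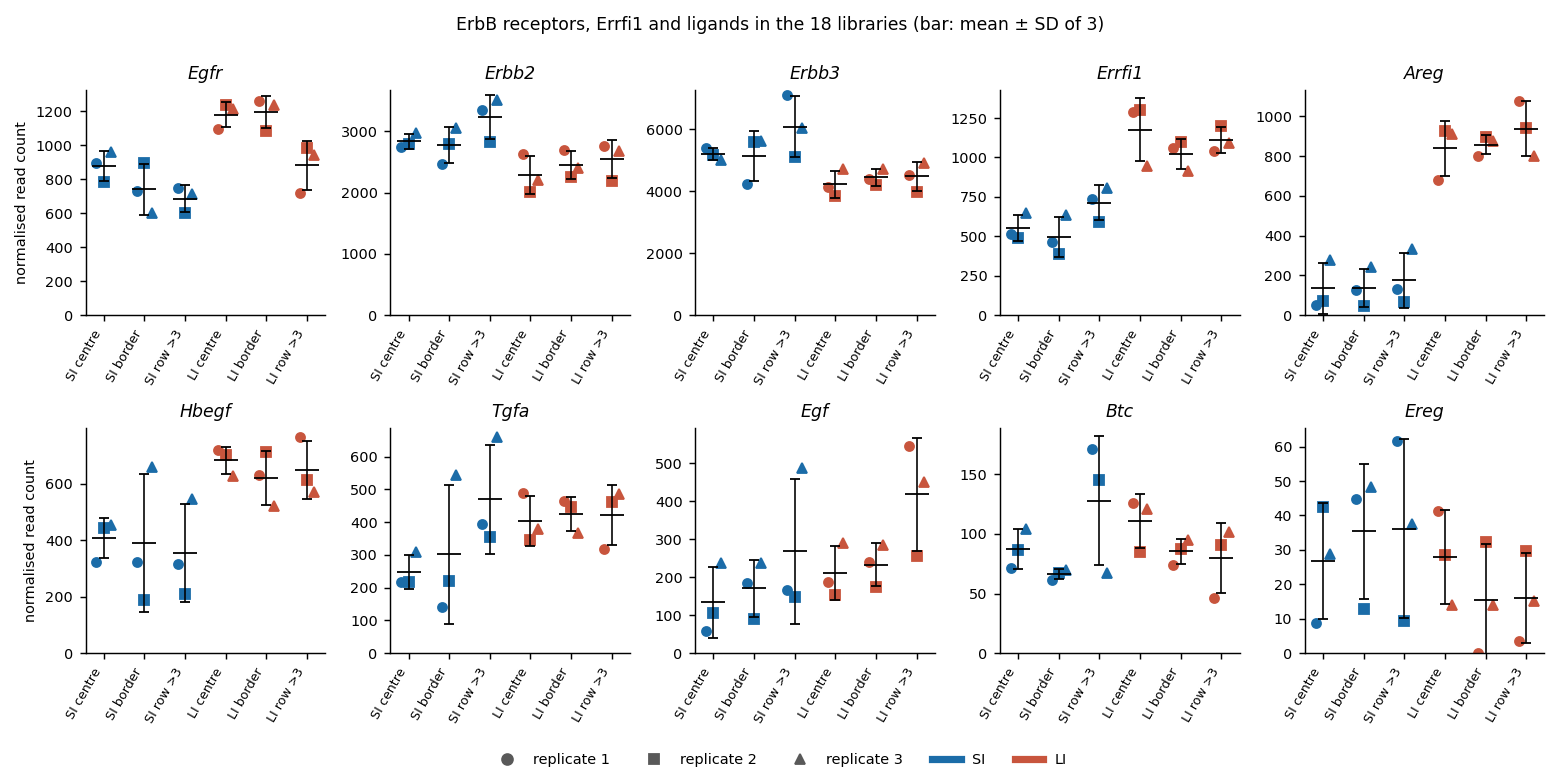
Normalised read count (y axis, linear, from 0) of each of the 10 genes in the 6 groups (x axis); each point is a library, its shape gives the replicate number, and the black bar is the mean with the SD of 3 libraries, cut at 0 in the Ereg panel. Areg and Errfi1 were lower in all 9 SI libraries than in any LI library, while the other 8 genes overlapped between the sites.

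The comparison between the sites asked whether Lgr5+ cells of the same level differ between SI and LI. Errfi1 was lower in the SI than in the LI in centre and border cells, by 2.22-fold and 2.14-fold in the edgeR fit to the raw counts, and Egfr was lower in SI border cells. Areg showed the largest difference of the 10 genes, and with all libraries it passed the threshold by DESeq2 at each Lgr5 level but not in the edgeR fit. In the quasi-likelihood test of edgeR, with p-values adjusted over 26717 genes by Benjamini-Hochberg, 1 of 10 members passed an adjusted p of 0.05 in centre cells, 2 of 10 in border cells and 0 of 10 in row >3 cells, all lower in the SI. Of all genes tested, 0.805%, 0.599% and 1.32% passed in that direction. At an unadjusted p under 0.05 there were 5, 3 and 5 members, beside 14.5%, 13.9% and 15.7% of genes. DESeq2 called 2, 3 and 3 members in either direction, beside 4.64%, 4.54% and 6.34%, and edgeR with the replicate number as a block called 3 in border cells, beside 1.97% of genes called lower. In these bulk samples, fewer cells of a type and less RNA per cell cannot be told apart.

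Areg, the gene of amphiregulin (ENSMUSG00000029378), was at 49.4, 73.7 and 280 normalised counts in SI centre libraries, 125, 48.0 and 240 in SI border libraries and 134, 64.8 and 331 in SI row >3 libraries, in the order of replicates 1 to 3. In the LI it had 681, 927 and 909 in centre, 802, 893 and 877 in border and 1077, 941 and 798 in row >3 libraries. Every LI library exceeded every SI library, and within the SI the libraries numbered 3 were the highest at each Lgr5 level. Only 0.564% of 24814 genes lay lower in all 9 SI than in all 9 LI libraries. The SI over LI log2 fold change came to -2.71 ± 0.68 (SE) in centre cells, -2.66 ± 0.69 in border cells and -2.52 ± 0.67 in row >3 cells, with edgeR adjusted p of 0.0596, 0.0771 and 0.056. DESeq2, the tool the study used, gave -2.64, -2.63 and -2.42 from the same libraries, with adjusted p of 2.92e-04, 3.58e-04 and 6.93e-04. With the block, the border difference was -2.84 with an adjusted p of 0.0185. Without the SI libraries numbered 3, the differences were -3.81, -3.49 and -3.23, with adjusted p of 9.63e-09, 1.74e-07 and 2.74e-08. Leaving out SI centre replicate 3 alone gave -3.82 (adjusted p = 0.00414), SI border replicate 3 alone -3.50 (0.0423) and SI row >3 replicate 3 alone -3.27 (0.011). The smallest differences with 1 library left out were -2.30 without SI centre replicate 1, -2.23 without SI border replicate 2 and -2.10 without SI row >3 replicate 2. The LI mean was 10.6-fold the mean of the 6 SI libraries numbered 1 and 2, which stood at 9.39% of the LI mean, while the SI libraries numbered 3 stood at 32.3%.

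Errfi1, which encodes the inhibitor also called Mig6 (ENSMUSG00000028967, mm10 chr4:150853919-150868892, plus strand), had 517, 490 and 646 normalised counts in SI centre, 465, 386 and 634 in SI border and 737, 594 and 809 in SI row >3 libraries. The LI libraries had 1286, 1298 and 946 in centre, 1058, 1098 and 916 in border and 1040, 1202 and 1092 in row >3 cells. The highest SI library, at 809, was below the lowest LI library, at 916. The SI over LI log2 fold change came to -1.15 ± 0.20 (SE) in centre cells with an edgeR adjusted p of 0.00328, and -1.10 ± 0.20 in border cells with 0.00638. Both calls were made under each of the 14 other settings, with adjusted p up to 0.0319 and 0.0468. In row >3 cells the difference was -0.70 ± 0.20 with an edgeR adjusted p of 0.0506, and -0.64 with 0.0225 by DESeq2. It was -0.75 with an adjusted p of 0.00509 without the SI libraries numbered 3, and -0.79 with 0.0278 without SI row >3 replicate 3 alone.

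The start regions of these genes are shown because Areg and Errfi1 were the only 2 members that separated every SI from every LI library. Of the 10 members, 7 had an entry in the RefSeq promoter table (build GRCm38.p6), Erbb3, Ereg and Hbegf having none. The 250 bases before the start of Areg (chr5:91139349-91139598, plus strand) and before both annotated starts of Errfi1 (chr4:150853546-150853795 and chr4:150854820-150855069, plus strand) are given 5′ to 3′, with the cyclic AMP response element TGACGTCA and the TATA box motif TATAAA in capitals.
Areg: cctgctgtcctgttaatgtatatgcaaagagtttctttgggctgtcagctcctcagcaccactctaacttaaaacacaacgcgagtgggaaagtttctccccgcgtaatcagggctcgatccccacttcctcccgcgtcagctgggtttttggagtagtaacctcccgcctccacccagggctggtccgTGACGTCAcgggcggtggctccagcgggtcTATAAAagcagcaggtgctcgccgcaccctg
Errfi1, first start: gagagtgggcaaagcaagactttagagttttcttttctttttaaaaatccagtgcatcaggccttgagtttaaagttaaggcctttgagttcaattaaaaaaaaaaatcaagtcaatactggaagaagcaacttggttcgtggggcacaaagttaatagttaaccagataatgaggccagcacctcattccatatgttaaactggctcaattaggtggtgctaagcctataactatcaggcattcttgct
Errfi1, second start: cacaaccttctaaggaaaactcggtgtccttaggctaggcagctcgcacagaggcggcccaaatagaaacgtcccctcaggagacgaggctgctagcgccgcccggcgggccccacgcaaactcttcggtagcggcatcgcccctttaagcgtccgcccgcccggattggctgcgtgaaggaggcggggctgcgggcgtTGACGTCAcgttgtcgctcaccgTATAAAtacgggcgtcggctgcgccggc
TGACGTCA began 61 bases before the start of Areg and 51 bases before the second start of Errfi1, and TATAAA began 31 and 28 bases before these starts. Searched on both strands, the 2 motifs were in 1.56% and 12.3% of 32536 promoters of the same length, and they share no letters of the sequence here. Neither motif was in the first Errfi1 promoter or in those of Egfr, Erbb2, Tgfa, Egf and Btc. The AP-1 motif TGANTCA, which was in 6.73% of all promoters, was in none of the members' promoters. The GC box GGGCGG, in 33% of all promoters, was in those of Areg, Egfr and Tgfa and in the second Errfi1 promoter. The matches describe letters in these windows, and binding was not measured.

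Egfr (chr11:16752203-16918158, plus strand; coordinates here and below are of mm10, from GENCODE M21) had 896, 782 and 957 normalised counts in SI centre, 727, 896 and 599 in SI border and 747, 598 and 710 in SI row >3 libraries. In the LI it had 1094, 1234 and 1210 in centre, 1260, 1085 and 1235 in border and 717, 984 and 944 in row >3 libraries. The groups did not overlap between the sites in centre and border cells and overlapped in row >3 cells. In border cells SI over LI gave a log2 fold change of -0.75 ± 0.18 (SE), with an edgeR adjusted p of 0.0319 and of 0.0162 with the replicate block. This call was lost without SI border replicate 1 or 3 or any 1 of the 3 LI border libraries, where the highest adjusted p was 0.147, and without the SI libraries numbered 3 (-0.59, adjusted p = 0.055). It was also lost when counts were scaled by library size only (adjusted p = 0.0749) and when no gene was filtered (0.0528), while DESeq2 gave 0.00519. Ordered by mean, the 6 groups ran from LI border (1194 ± 94.4, SD, n = 3) and LI centre (1179 ± 74.9) through LI row >3 (882 ± 144) and SI centre (878 ± 88.9) to SI border (740 ± 149) and SI row >3 (685 ± 77.6). Only LI centre and LI row >3, among neighbours in this order, did not overlap. Egfros, an antisense RNA that overlaps Egfr, reached at most 18.3.

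Erbb2 (chr11:98412470-98437716, plus strand) had 2460, 2826 and 3512 normalised counts as the lowest, median and highest of the 9 SI libraries, and 2016, 2408 and 2766 in the 9 LI libraries. Erbb3 (chr10:128567523-128589652, minus strand) had 4224, 5415 and 7102 in the SI, and 3852, 4410 and 4924 in the LI. The sites overlapped for both genes when the Lgr5 levels were pooled, and did not overlap in centre or in row >3 cells taken alone, with the SI higher. Neither gene passed the edgeR test in any comparison. Erbb3 came closest between the sites in row >3 cells, with a log2 fold change of 0.39 ± 0.15 (SE) and an adjusted p of 0.193, and DESeq2 gave 0.0474 there; Erbb3 was singled out here after its values were seen. Neighbours in the order of group means overlapped for both genes throughout. The 2 genes were each other's most similar member across the 18 libraries (Pearson's r = 0.84 of log2 values, a description over libraries that share site and level). Mien1, which lies on the opposite strand and overlaps Erbb2, had 53.5 to 299 normalised counts. The strand setting of the counting was not given in the sources used here.

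Hbegf, a ligand that also binds ErbB4 (chr18:36504927-36515805, minus strand), had 324, 443 and 454 normalised counts in SI centre, 321, 187 and 660 in SI border and 314, 208 and 546 in SI row >3 libraries. In the LI it had 717, 700 and 628 in centre, 630, 711 and 520 in border and 765, 612 and 571 in row >3 libraries. The SI libraries numbered 3 lay at 454 to 660, above the other 6 SI libraries at 187 to 443, and without them no SI library reached the lowest LI library. With all libraries the SI over LI log2 fold changes were -0.80 ± 0.36 (SE) in centre cells, -0.70 ± 0.36 in border cells and -0.94 ± 0.36 in row >3 cells, with edgeR adjusted p of 0.303, 0.416 and 0.188. Without the SI libraries numbered 3 they were -0.85, -1.38 and -1.32, with adjusted p of 0.0154, 9.21e-04 and 3.03e-04. Leaving out SI border replicate 3 alone gave -1.40 (0.0201), and SI row >3 replicate 3 alone -1.36 (0.0182). In centre cells, leaving out SI centre replicate 3 alone gave -0.87 with an adjusted p of 0.273, so that the centre call was made when all 3 were left out and not with that 1. Leaving out SI border replicate 2 took the border difference to -0.36, and the adjusted p with 1 border library left out reached 0.793. These Hbegf values and those of Tgfa, Egf and Btc without the SI libraries numbered 3 were chosen for printing after they were seen.

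Tgfa, the gene of TGF-alpha (chr6:86195223-86275719, plus strand), had 219, 216 and 309 normalised counts in SI centre, 142, 220 and 544 in SI border and 394, 355 and 659 in SI row >3 libraries. The LI had 489, 345 and 378 in centre, 466, 445 and 366 in border and 319, 461 and 488 in row >3 libraries. SI centre libraries lay below LI centre libraries, and the sites overlapped at the other Lgr5 levels. With all libraries the SI over LI log2 fold changes were -0.75 ± 0.36 (SE) in centre and -0.50 ± 0.36 in border cells, with edgeR adjusted p of 0.34 and 0.634. They were -0.90 (adjusted p = 0.0145) and -1.22 (0.00397) without the SI libraries numbered 3, and leaving out SI border replicate 3 alone gave -1.28 (0.028) in border cells. Leaving out SI centre replicate 3 alone gave -0.93 in centre cells with an adjusted p of 0.223, which did not pass, and leaving out SI border replicate 1 took the border difference to -0.18.

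Egf itself (chr3:129677565-129755316, minus strand) had 57.5, 107 and 239 normalised counts in SI centre, 184, 90.7 and 237 in SI border and 167, 149 and 489 in SI row >3 libraries. The LI had 188, 154 and 290 in centre, 240, 173 and 286 in border and 547, 256 and 452 in row >3 libraries. The SI libraries numbered 3 were again the highest SI libraries at each level, at 237 to 489 against 57.5 to 184, and overlapped the LI. The SI over LI log2 fold changes were -0.71 ± 0.54 (SE) in centre and -0.72 ± 0.52 in row >3 cells, with edgeR adjusted p of 0.628 and 0.6. Without the SI libraries numbered 3 they were -1.40 (adjusted p = 0.0249) and -1.40 (0.00821). Leaving out SI centre replicate 3 alone gave -1.41 (0.173) and SI row >3 replicate 3 alone -1.44 (0.086), and neither passed. The differences shrank to -0.34 (0.908) without SI centre replicate 1 and to -0.42 (0.896) without SI row >3 replicate 2. The summed Paneth cell markers were at 4476 to 40646 in the SI libraries numbered 3 and at 36921 to 174129 in the other 6, and their part in the Egf values was not tested.

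Btc and Ereg were the remaining ligands. Btc (chr5:91357261-91402994, minus strand) ranged from 61.4 to 171 normalised counts in the SI and from 46.5 to 126 in the LI. Its difference between the sites in row >3 cells, a log2 fold change of 0.65 ± 0.35 (SE) with an edgeR adjusted p of 0.391, was 0.97 with 0.041 without the SI libraries numbered 3, and 0.37 without LI row >3 replicate 1. Ereg (chr5:91074622-91093646, plus strand) ranged from 8.91 to 61.6 in the SI and from 0 to 41.2 in the LI, where the 1 library with no read, LI border replicate 1, allows up to 2.75 normalised counts (a limit of 3 reads, for counting error only). With 0 to 90 raw counts per library, no difference in Ereg passed the test, and the 95% interval of its log2 fold change in border cells, chosen for printing after it was seen, ran from -0.62 to 3.08. Ereg, Areg (chr5:91139599-91148432, plus strand) and Btc lie side by side on chromosome 5 with Epgn, another ligand gene (chr5:91027464-91035215, plus strand), whose highest value was 18.8. Of these neighbours, only Areg separated the sites.

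In the order of their 6 group means, Areg, Errfi1 and Hbegf each had 1 step between neighbours whose libraries did not overlap, from LI centre to SI row >3, from LI border to SI row >3 and from LI border to SI centre. For Tgfa, Egf, Btc and Ereg all neighbours in the order overlapped.

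**Figure D2:**
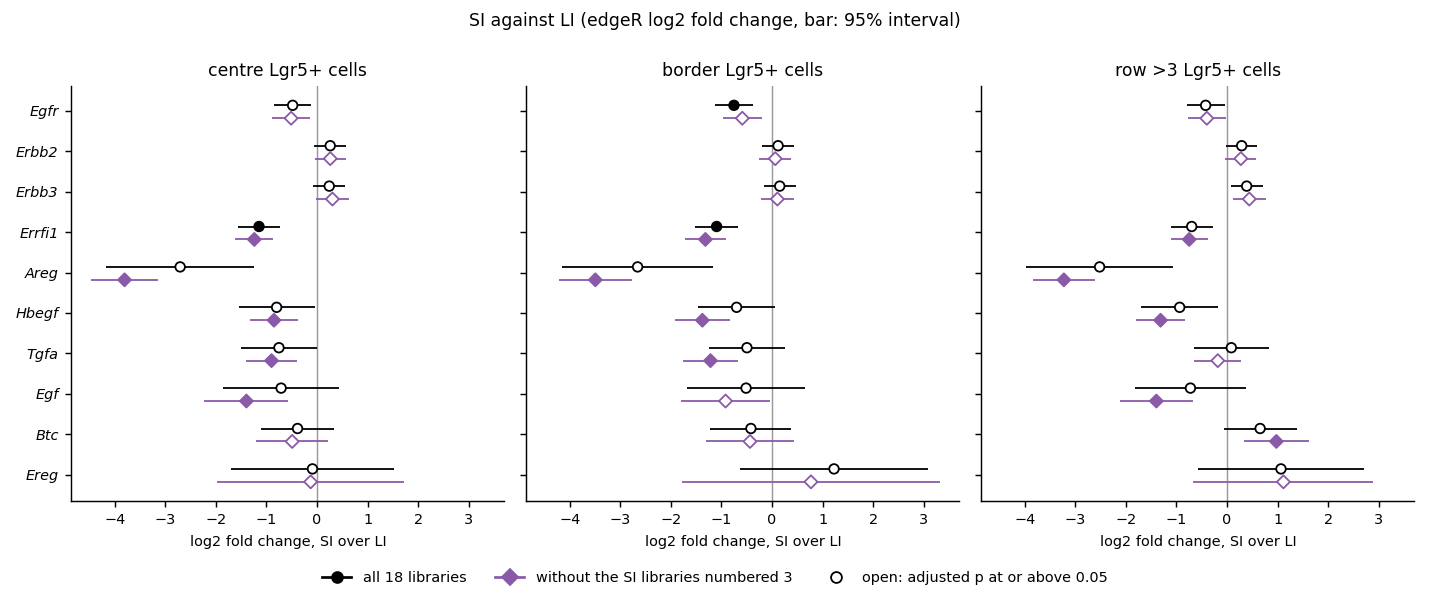
log2 fold change of SI over LI (x axis) for each gene (y axis) in centre, border and row >3 cells, with all 18 libraries (circles) and without the SI libraries numbered 3 (diamonds); bars are 95% intervals and filled symbols have an adjusted p under 0.05. Areg lay at -2.71, -2.66 and -2.52 with wide bars, and at -3.81, -3.49 and -3.23 with narrower bars once those libraries were left out.

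Counted by groups that did not overlap, 7 of 10 members separated SI from LI in centre cells, 4 in border cells and 5 in row >3 cells, beside 19.6%, 16.1% and 18.9% of 24814 genes. In centre cells these were Egfr, Areg, Hbegf, Tgfa and Errfi1, lower in the SI, and Erbb2 and Erbb3, higher. Without the SI libraries numbered 3, edgeR called 5 members lower in SI centre cells (6.39% of genes), 4 in border cells (4.4%) and 4 in row >3 cells (5.36%), with Btc higher in row >3 cells (6.8%). The genes called were Areg, Hbegf and Errfi1 at each level, with Tgfa in centre and border cells and Egf in centre and row >3 cells. The median log2 fold change of the 10 members was -0.60 in centre cells, -0.51 in border cells and -0.17 in row >3 cells, beside 0 over all genes in each comparison.

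The composition of the ligand transcripts differed in step with these levels. Summed over the 6 ligands, the level per kb of exon was 138 to 554 in SI libraries, with a median of 232, and 839 to 1153 in LI libraries, with a median of 992. The SI libraries numbered 3 stood at 423 to 554 and the other 6 at 138 to 304, and all 9 lay below the LI. In the LI, Areg made up 66.8% to 77.2% of this sum and was the leading ligand in each library, with Hbegf second at 11.5% to 17.7%. In the SI, Areg made up 24.7% to 54.4%, Hbegf 20.4% to 40.8% and Tgfa 9.41% to 27.6%. Hbegf led in SI centre replicates 1 and 2, Tgfa led in SI row >3 replicate 2, and Areg led in the other 6 SI libraries. In the SI libraries numbered 3 the Areg share was 42.4% to 54.4%, and in the other 6 it was 24.7% to 44.4%. Egf, for which the family is named, gave 3.10% to 7.82% of the ligand sum in the SI and 1.36% to 4.37% in the LI.

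The receptor sum differed less, at 1239 to 1890 per kb in the SI and 1136 to 1417 in the LI, and the sites overlapped. Erbb3 gave 53.4% to 62.5% of it and Erbb2 32.3% to 39.4%. Egfr gave 3.36% to 5.68% in the SI and 4.70% to 9.59% in the LI. These shares are transcript levels per exon length and carry no test.

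**Figure D3:**
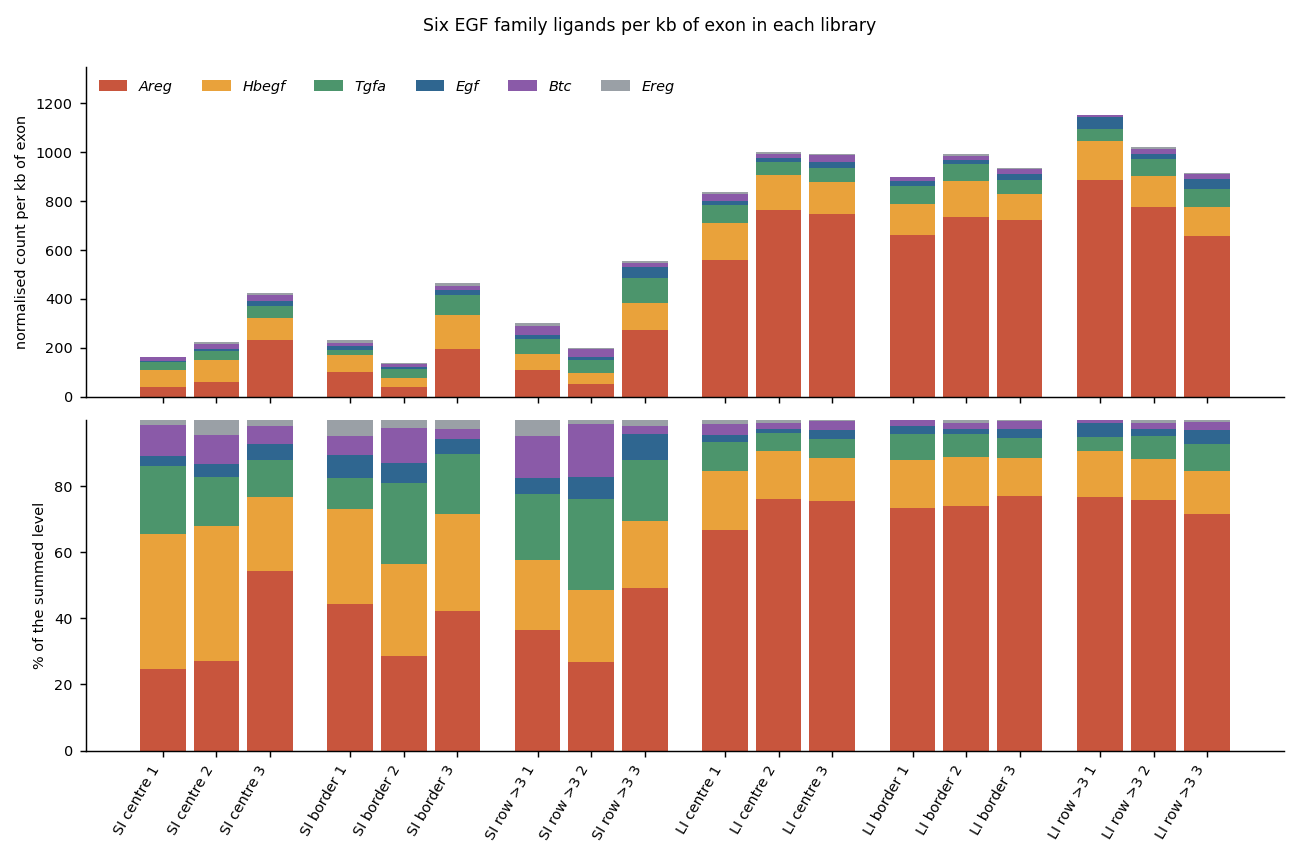
Summed level of the 6 ligands in normalised counts per kb of exon (upper panel, y axis) and the share of each ligand in that sum (lower panel, y axis in percent) for the 18 libraries (x axis, replicate number last). LI bars reached 839 to 1153 and were mostly Areg, while SI bars reached 138 to 554 and held larger shares of Hbegf and Tgfa.

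Within each site, the comparisons of border or row >3 with centre cells asked how expression changes with distance from the crypt centre. No member passed the edgeR test in any of these 4 comparisons. The shares of all genes that passed were 0.0112% in SI border, 0% in LI border, 13.2% in SI row >3 and 0.0187% in LI row >3 cells. At an unadjusted p under 0.05 the counts of members were 0, 0, 1 and 1, beside 8.98%, 1.38%, 23.9% and 6.96% of genes, and DESeq2 called no member, beside 0.782%, 0%, 15.9% and 0.348%. Same-numbered libraries of a site deviated together, and with the replicate number as a block 3 of 10 members were called in SI row >3 against centre (Tgfa, Egf and Errfi1, all higher, beside 12.4% of genes) and 1 in LI row >3 against centre (Egf, higher, beside 1.28%). No member was called with the block in the border comparisons, where 2.32% of genes passed in the SI and 0% in the LI.

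Tgfa was higher in row >3 than in centre cells in each SI pair, at 1.80, 1.64 and 2.13 times the centre value, and the SI groups did not overlap, as for 26.8% of genes. Its log2 fold change was 0.92 ± 0.36 (SE) with an edgeR adjusted p of 0.109, 0.90 ± 0.23 with 0.00543 with the block, and 0.79 with 0.0349 without the SI libraries numbered 3. It was 0.60 without SI row >3 replicate 3 alone (0.364). In the fit without the 3 libraries Btc was called too (1.02, adjusted p = 0.0475), so that 2 of 10 members were higher, beside 9.97% of genes. With all libraries Btc gave 0.59 ± 0.35 (SE) with an edgeR adjusted p of 0.34, and without SI row >3 replicate 1 it gave 0.34 with 0.794. In the LI pairs the ratios of Tgfa were 0.652, 1.33 and 1.29. The difference between the sites in the Tgfa change, given after its value was seen, was 0.84 ± 0.50 with an edgeR adjusted p of 0.876, and 0.208 with the block.

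Egf was higher in row >3 than in centre cells in all 6 same-numbered pairs, at 2.90, 1.40 and 2.05 times the centre value in the SI and 2.90, 1.66 and 1.56 times in the LI. The log2 fold change was 0.97 ± 0.54 (SE) in the SI, with an edgeR adjusted p of 0.318, and 0.98 ± 0.52 in the LI, with 0.773. With the block these were 0.98 ± 0.26 with an adjusted p of 0.00887 and 0.96 ± 0.23 with 0.0293. Without the SI libraries numbered 3, the SI difference was 0.97 with an adjusted p of 0.15. Single libraries moved it further, to 0.25 (adjusted p = 0.866) without SI row >3 replicate 3 and to 1.67 (0.0525) without SI centre replicate 3. The change differed between the sites by -0.01, a value chosen for printing after it was seen, with a 95% interval from -1.63 to 1.60.

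Errfi1 was higher in row >3 than in centre cells in the 3 SI pairs, at 1.42, 1.21 and 1.25 times the centre value, and at 0.809, 0.926 and 1.15 times in the LI pairs. In the SI the log2 fold change was 0.37 ± 0.20 (SE) with an edgeR adjusted p of 0.281, and 0.38 ± 0.13 with 0.0401 with the block. It was 0.41 with 0.188 without the SI libraries numbered 3, and 0.18 with 0.666 when scaled by library size only. Egfr, singled out after its values were seen, was lower in row >3 than in centre cells in all 6 pairs, at 0.833, 0.765 and 0.742 times in the SI and 0.655, 0.797 and 0.78 times in the LI. The groups did not overlap at either site, as for 26.8% of genes in the SI and 15.9% in the LI, and the edgeR adjusted p came to 0.239 for the SI and 0.647 for the LI, or 0.123 and 0.167 with the block. Areg did not keep a direction, with row >3 values of 2.71, 0.879 and 1.18 times the centre value in the SI and 1.58, 1.01 and 0.878 times in the LI.

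**Figure D4:**
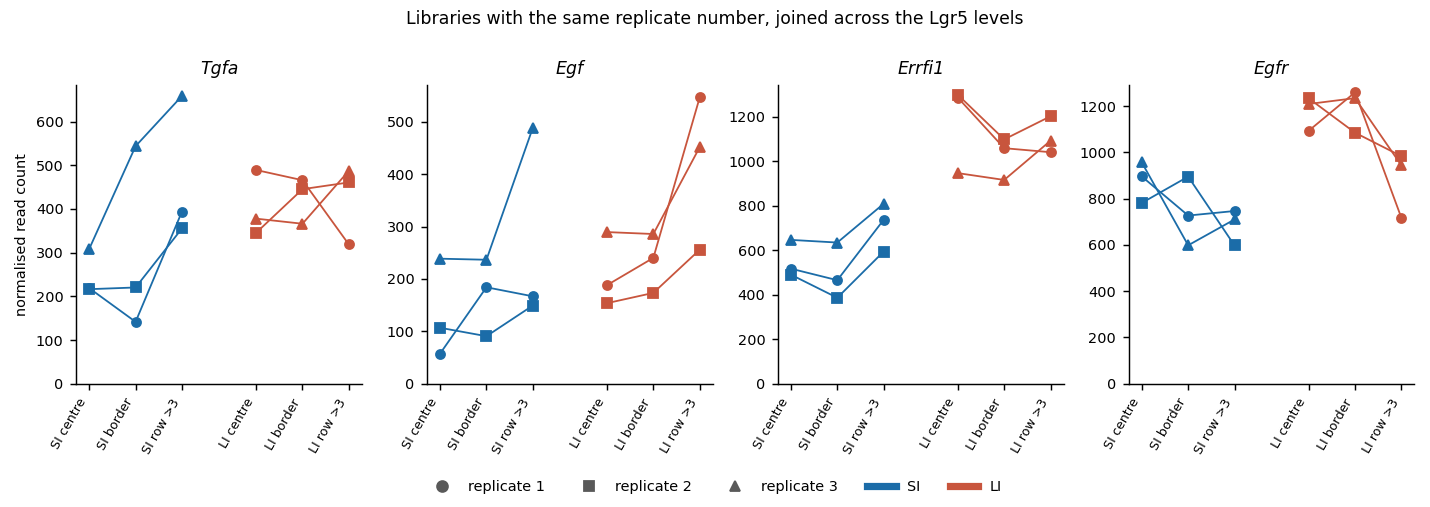
Normalised read count (y axis, linear, from 0) of Tgfa, Egf, Errfi1 and Egfr in centre, border and row >3 cells (x axis) of the SI (blue) and LI (red); lines join libraries with the same replicate number. Egf ended higher than it began in all 6 lines and Egfr lower in all 6, and Tgfa and Errfi1 ended higher in the 3 SI lines and in 2 and 1 of the 3 LI lines.

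Summed goblet and absorptive markers rose from centre to row >3 cells at both sites, and other marker lists did not rise throughout. The summed goblet cell markers were 15557 to 216217 in SI centre and 653573 to 1063780 in SI row >3 libraries, and 144873 to 236076 and 313441 to 503744 in the LI. The 11 absorptive markers summed to 3987 to 10277 in SI centre, 17367 to 71064 in SI row >3, 8633 to 11794 in LI centre and 22476 to 36356 in LI row >3 libraries. Car1 is 1 of the 11 and alone had 2498 to 4510 in LI centre and 15895 to 26486 in LI row >3 libraries. It had 38981 of the 71064 in SI row >3 replicate 3, so these sums do not show a rise of each marker. Paneth cell markers summed to 36921 to 174129 in SI centre and 4476 to 99955 in SI row >3 libraries. Enteroendocrine markers summed to 59 to 5895 and 768 to 11943 in these SI groups, and to 2860 to 4753 and 1135 to 4703 in the LI. Tuft cell markers summed to 3034 to 5136 in LI centre and 2740 to 3263 in LI row >3 libraries. The part of these cell types in the values of Tgfa, Egf, Errfi1 and Egfr was not tested. Immune markers summed to at most 597 and stromal markers to at most 330 in any library, with Dcn at 0 in all SI libraries.

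The difference between the sites in the border or row >3 change was tested itself, and no member passed in either test by edgeR, beside 0% of all genes. At an unadjusted p under 0.05 there were 0 and 1 members (beside 2.65% and 6.74% of genes), the latter being Btc in the row >3 change. DESeq2 called no member, beside 0.00749% and 0.558% of genes, nor did the block, beside 0% and 2.32%. Btc was 2.40, 1.68 and 0.643 times the centre value in SI row >3 cells and 0.369, 1.08 and 0.841 times in the LI. The Btc interaction, singled out after its values were seen, was 1.04 ± 0.49 (SE), with an edgeR adjusted p of 0.735.

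The remaining genes of the pathway were read from 5 lists. Among 6 other receptors and ligands, Erbb4 reached at most 1.4 normalised counts and Nrg1, Nrg2 and Nrg3 at most 3.5, so ErbB4, the receptor of the family that binds both ligand groups, was near 0 in all libraries. Nrg4 had 7.9 to 67.4. None of the 5 genes that release ligands passed the edgeR test in any comparison, although Adam10, a protease that cuts Egf and Btc, was called in SI row >3 against centre cells with the block (0.50, adjusted p = 0.0131). Adam17, which cuts Areg, Hbegf and Tgfa, had 433 to 770.

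Between SI row >3 and centre cells, 4 of 16 relay genes rose (7.35% of all genes did). They were the kinases Mapk3 (log2 fold change 1.10 ± 0.24, SE), Map2k1 (1.08 ± 0.29) and Map2k2 (0.50 ± 0.14) and the GTPase Hras (0.83 ± 0.19), with edgeR adjusted p of 0.00404, 0.0152, 0.0209 and 0.00487. Of 7 genes that restrain receptors, Lrig1, a stem cell gene that promotes ErbB degradation, fell by 1.50 ± 0.22 (adjusted p = 1.41e-04), from 6570 to 2323 normalised counts, and the phosphatase Ptprj rose by 0.46 ± 0.14 (0.032). The Ptprj call was lost without the SI libraries numbered 3 (adjusted p = 0.0528). These 2 calls stood beside 5.82% of all genes called lower and 7.35% called higher. With the block, 3 restraint genes were called higher, beside 12.4% of all genes. In LI row >3 cells no pathway gene was called by edgeR. The block called Lrig3, Map2k1 and Mapk3 higher, beside 1.28% of all genes, and Lrig1 lower (-0.97, adjusted p = 5.67e-04). The share of all genes called lower with the block is not given for that comparison. In SI border against centre cells the block called 2 relay genes higher and 1 restraint gene lower, beside 2.32% of genes in either direction.

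Of 15 ERK feedback and target genes, 3 fell in SI row >3 against centre cells (5.82% of all genes did) and none rose. Phlda1 fell by 1.08 ± 0.22 (SE, edgeR adjusted p = 0.00199), the phosphatase gene Dusp4 by 1.29 ± 0.41 (0.0393) and the transcription factor gene Etv4 by 2.27 ± 0.68 (0.0304). The Etv4 call was lost without the SI libraries numbered 3 (-1.37, adjusted p = 0.213). With the block, 4 genes of the list were called higher (Dusp5, Dusp6, Etv5 and Fos), beside 12.4% of all genes. The fit without the SI libraries numbered 3 called 3 higher (Dusp6, Spry2 and Fos), beside 9.97% of all genes, and 2 lower (Dusp4 and Phlda1). In LI row >3 cells the block called Etv4 and Phlda1 lower. The share of all genes it called lower there is not given, so these 2 calls are not read as particular to the list. In SI border against centre cells the block called 1 gene of the list lower, beside 2.32% of genes in either direction.

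Genes of the same list were called lower in the SI at each Lgr5 level. In centre cells 5 of 15 genes passed, in border cells 6 and in row >3 cells 4, beside 0.805%, 0.599% and 1.32% of all genes, and none passed in the other direction. The median log2 fold change of the list was -1.38, -1.22 and -1.24. Fos had 2754 ± 1010 (SD, n = 3) normalised counts in SI centre and 11653 ± 788 in LI centre libraries, a log2 fold change of -2.13 ± 0.33 (SE) with an edgeR adjusted p of 0.00354. Egr1 had 3281 ± 463 and 10653 ± 2180, with -1.75 ± 0.27 and 0.00193. Dusp5, Spry1 and Fosl1 passed in centre cells with -2.03, -0.97 and -2.30, and with these 5 genes Phlda1 in border cells (-0.88, adjusted p = 0.0401). In row >3 cells Phlda1, Egr1, Fos and Fosl1 passed. In border cells the block raised the count from 6 to 10, beside 1.97% of all genes, and without the SI libraries numbered 3 the counts were 11, 9 and 9, beside 6.39%, 4.4% and 5.36%. No relay, restraint, ligand-release or other receptor gene passed the edgeR test between the sites with all libraries and no block. With the block, 1 relay gene was called lower in SI centre cells, where replicate numbers did not pair libraries across the sites. Without the SI libraries numbered 3, 1 restraint gene was called lower in the SI at each Lgr5 level, Lrig3 (-1.07, -1.13 and -1.27, adjusted p of 2.09e-04, 2.03e-04 and 1.81e-05), and 1 relay gene, Mapk3, in centre (-0.91, 5.44e-04) and border cells (-0.79, 0.00361).

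**Figure D5:**
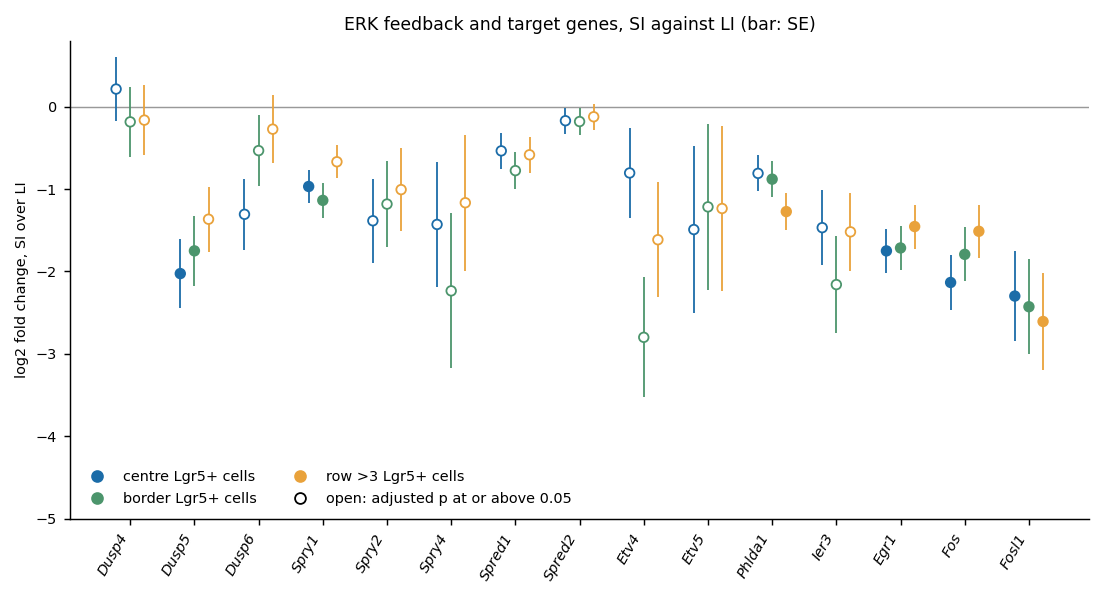
log2 fold change of SI over LI (y axis) of the 15 ERK feedback and target genes (x axis) in centre, border and row >3 cells; bars are standard errors and filled points have an adjusted p under 0.05. All 15 genes lay below 0 in border and row >3 cells, with Egr1, Fos and Fosl1 filled at each level.

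Immediate-early genes, which are also induced within minutes to hours when tissue is dissociated, moved with the site as well. All 8 listed genes (Fos, Fosb, Jun, Junb, Egr1, Atf3, Ier2 and Nr4a1) were lower in all 9 SI than in all 9 LI libraries, and 5 of the 15 ERK feedback and target genes were too, beside 0.564% of genes. Fos and Egr1 belong to both lists, so the counts overlap. The sum of the 8 immediate-early genes was 13192 to 21512 in the SI libraries numbered 1 and 2, 23406 to 27120 in those numbered 3 and 44584 to 87332 in the LI. Areg and Errfi1 took the same order of these 3 sets by their means, at 82.5, 284 and 878 for Areg and 531, 696 and 1104 for Errfi1. Hbegf took it too, at 299, 553 and 650, and no other member did. The part of dissociation in the values of Areg, Errfi1, Hbegf and the ERK targets was not tested.

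The genes most like each member were found by Pearson's r of log2(normalised count + 1) over the 18 libraries, among 11445 genes with a mean normalised count of at least 50. The libraries share sites and replicate numbers, so r is a description. Areg was most like Btg2 (0.968), Ptpn13 (0.958) and Zfp36 (0.957), Btg2 and Zfp36 being genes of the early response to growth factors and stress. Errfi1 was most like Fos (0.959), Btg2 (0.958) and Rnd3 (0.953), and its most similar member was Areg (0.919). Hbegf was most like Zbtb10 (0.926), with Areg as its most similar member (0.871). Tgfa was most like Nbeal1 (0.947), Egf like Pdk2 (0.933), Egfr like Fam179b (0.905), Erbb3 like Tmem236 (0.921), Erbb2 like Wipf2 (0.894) and Btc like Capn7 (0.816). Ereg lay under the mean of 50 and was left out.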

How the data were processed

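Lgr5+ cells were sorted from 6 groups of 3 libraries, and RNA was sequenced after SMART-Seq Stranded preparation. Per the methods, the authors trimmed reads with Skewer, aligned them to mm10 with STAR and deposited a raw count per gene; annotation release and strand setting were not given in the sources used here. The authors also deposited a signal table of normalised counts, which equals each raw count divided by 1 DESeq2 size factor per library. From the raw counts, edgeR 4.0.16 (R 4.3.3) fitted all 6 groups (quasi-likelihood, robust, TMM factors, 12 residual degrees of freedom) over 26717 of 43346 genes with a mean count above 0, with a threshold of 0.05 on p-values adjusted by Benjamini-Hochberg. The study used DESeq2, here an alternative (1.42.0). Other alternatives were other scalings, filters, a replicate block, the edgeR legacy fit (chosen after seeing the data) and left-out libraries. Tested on simulated data for SI against LI centre cells over 26717 genes, the fit recovered 23% of 100 genes changed by a log2 fold of 1 and 81% of 100 changed by 2. The changed genes had a mean raw count of at least 50, so these shares do not describe genes of lower count. The simulated libraries were drawn independently, without deviations shared by same-numbered libraries. Same-numbered libraries of a site deviated together (r of 0.321 to 0.742 in the SI and 0.371 to 0.646 in the LI over 11518 genes). Border libraries across sites had weak positive r (0.139 to 0.207), within the range across sites at unlike Lgr5 levels (-0.106 to 0.376). The block is given for these comparisons. Within a site it was 1 replicate effect per site. Between the sites it was 1 replicate effect shared by SI and LI at every Lgr5 level, so the border result with the block assumes pairing at every level. A member's fold change was printed where its adjusted p was under 0.05, or its unadjusted p under 0.01, in the edgeR fit with or without the block; others are said to be chosen after their values were seen. The members, pathway lists and marker lists were chosen with earlier results of these data known. Levels per kb used GENCODE M21 exon lengths.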

Additional observations from a re-analysis of the deposited data

How the results depend on the processing

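Of the fold changes printed for the members with their tests between 2 groups, none changed sign under another setting. The printed difference between the sites in the Egf row >3 change (-0.01) did, at 0.02 with the block and -0.74 to 0.69 over the settings. Fold changes not printed above did too, none of them called. Tgfa in SI border against centre was 0.33, and -0.24 without the SI libraries numbered 3. In row >3 cells between the sites it was 0.08 and -0.18. Of those printed between 2 groups, Erbb3 aside, 230 stayed on their side of the threshold, 42 passed where they had not and 8 no longer passed. All 60 group levels moved by less than 1 SD when scaled by TMM factors. Members called in centre cells, SI against LI, numbered 1 with all libraries; they numbered 2 (Errfi1 and Areg) with DESeq2, library size only, filterByExpr and the replicate block, 5 without the SI libraries numbered 3, and 1 to 2 with 1 library left out, the highest without SI centre replicate 3. In border cells, 2 members were called (Errfi1 and Egfr); 1 (Errfi1) without a filter, Errfi1 and Areg with library size only, 4 without the SI libraries numbered 3, and 1 to 4 with 1 library left out, the highest without SI border replicate 3. In row >3 cells, 0 were called; 3 with DESeq2, 2 with library size only, filterByExpr and the replicate block, 1 with the legacy fit, 5 without the SI libraries numbered 3, and 0 to 3 with 1 library left out, the highest without SI row >3 replicate 3. SI row >3 against centre gave 0 members, 3 with the replicate block and 2 without the SI libraries numbered 3; LI row >3 against centre gave 0, and 1 with the replicate block. The shares of all genes called are not given for library size only, filterByExpr, no filter, the legacy fit and single libraries left out. They are also not given for the block between the sites in centre and row >3 cells. Counts under those settings are therefore not read as particular to the members. The causes of the changes in these counts were not tested. Numbers did not pair libraries across the sites in centre (r of 0.0156 to 0.233) and row >3 cells (-0.051 to 0.277), where the block gave Areg -2.92 and -2.74 with edgeR adjusted p of 0.0114 and 0.0112, and Errfi1 in row >3 cells -0.71 with 0.0288. Ereg had the lowest depth, at 0 to 90 raw counts.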
